A study of Homo sapiens with 6 samples.

Results

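The 43 interferon-stimulated genes described here were chosen by name, as rows of the gene tables whose symbol equals a member of the list, and all 43 were found among 60640 gene identifiers. They were measured by RNA-seq of polyadenylated RNA from MOLT-4, an established line of human T-ALL, a T-cell acute lymphoblastic leukemia. There were 3 wild type libraries, which the labels name the control of the knockout, and 3 IK-KO-labelled libraries, from cells whose IKZF1, which encodes IKAROS, was edited by CRISPR-Cas. No interferon or other agent is named for either group. The edited cells and their control were bought as such, and the labels do not say which knockout clone was sequenced or whether the replicates are separate cultures, so p-values measure only the spread between these libraries, which may be technical, and effects of IKAROS loss and other line differences cannot be told apart.

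Values are FPKM, fragments per kilobase of transcript scaled to library depth, so levels of different genes are compared per length. Each library's FPKM summed to between 699352 and 738051, and relative depth, judged from the confidence bounds in the tables, lay between 0.904 and 1.08 of the mean. If those bounds reflect counting error alone, 1 FPKM corresponded to about 14.6 to 17.5 fragments for a transcript of 1 kilobase. This is an estimate, since no counts are given. IKZF1 RNA (chr7:50304068-50405101) was 134, 124 and 105 FPKM in wild type and 207, 260 and 207 FPKM in the IK-KO-labelled libraries, a change on the log2 scale of 0.89 (SE 0.12, limma adjusted p = 0.00294). The targeted gene's RNA was therefore higher, not lower, in the IK-KO-labelled libraries. An RNA level does not measure IKAROS protein, and the study's methods state that loss of IKAROS was checked by PCR and by western blot, neither of which is part of the tables used here. Directions below follow the labels. All 8 T lineage markers were expressed, summing to between 1275 and 1338 FPKM in wild type and between 1551 and 1748 FPKM in the IK-KO-labelled libraries, but single markers moved both ways. CD247 (log2 change 1.88), CD3G (0.65) and CD3D (0.44, called under 7 of 15 alternatives) were called higher in limma, CD7 (-1.72, from a mean of 15.8 to 4.17 FPKM) and CD5 (-1.06, from 25.3 to 11.7 FPKM) lower, and CD3E, LCK and BCL11B were not called. The part of these differences in the results below was not tested. Markers of other cell types stayed low: the 28 genes of the B, natural killer, myeloid, plasmacytoid dendritic, erythroid and fibroblast lists summed to at most 7.31 FPKM in any library.

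Interferons are secreted proteins that warn cells of infection. Type I interferons bind the receptor IFNAR1/IFNAR2, whose kinases JAK1 and TYK2 pass the signal on by phosphorylation. It reaches ISGF3, a complex that includes STAT2 and IRF9 and binds the interferon-stimulated response element (ISRE) before the start of many genes. The encoded proteins block viral entry, degrade or sequester viral RNA, or dampen the response itself, and many of the genes keep a basal level in cells that have not met interferon.

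The ISRE was looked for in promoter windows of RefSeq (250 bases before to 50 after the start, build GRCh38.p14), which were found for 35 of the 43 members. No window was used for OASL, MX2, OAS2, TRIM22, IFITM2, USP18, IRF7 and IFIT2. The ISRE core, GAAA on both sides of any 2 bases and read on either strand, occurred in a window of 25 of the 35 members (71.4%), against 4.38% of 27305 genes with a window. The letters TTCNNNGAA, those of the GAS element known from responses to interferon-gamma, occurred in 37.1% of the 35 members and 9.38% of all genes, and in 6 of the 46 member windows a GAS match overlapped an ISRE match. TGGGAA, a core recognised by IKAROS, occurred in 20.0% of the members against 28.1% of all genes, and in 1 window overlapped an ISRE match, in BST2. Of the called members with a window (see the test described next) 3 of 4 held the ISRE core, as did 19 of 27 that were not called and 3 of 4 that were not tested. A match is a description of letters and not of binding.

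To show what these matches look like, stretches outside exons of protein-coding genes are printed for 2 called members, IFI44 and MX1, and for 3 members of high level that were not called, LGALS3BP, ISG15 and IFI6. They were picked after values were seen. Each is printed 5′ to 3′ on the gene's strand, and capitals mark the ISRE core in either orientation. IFI44 and MX1 have several annotated starts, and the stretch shown belongs to 1 of them. For MX1 this stretch lies inside the gene's row, which begins at 41420304. In the MX1 window nearest that end the only match is at base 12 after the start, and another MX1 window holds none.
IFI44 (chr1:78649689-78649788, plus strand): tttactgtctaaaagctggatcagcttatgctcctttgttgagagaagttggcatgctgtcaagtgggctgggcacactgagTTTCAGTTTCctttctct
MX1 (chr21:41431829-41431928, plus strand): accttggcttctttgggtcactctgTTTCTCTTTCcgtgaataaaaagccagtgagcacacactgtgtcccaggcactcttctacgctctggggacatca
LGALS3BP (chr17:78979948-78980023, minus strand): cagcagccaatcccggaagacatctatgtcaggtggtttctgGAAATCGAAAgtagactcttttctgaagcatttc
ISG15 (chr1:1013359-1013458, plus strand): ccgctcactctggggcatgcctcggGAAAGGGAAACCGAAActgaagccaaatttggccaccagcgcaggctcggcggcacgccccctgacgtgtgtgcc
IFI6 (chr1:27672274-27672373, minus strand): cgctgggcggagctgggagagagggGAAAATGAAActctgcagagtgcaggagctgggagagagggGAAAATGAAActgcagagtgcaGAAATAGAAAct

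Of the 43 members, 38 reached a mean FPKM of 1 over the 6 libraries and were tested for a difference between the groups with limma on log2(FPKM + 1), a scale that understates the change of low genes. A gene is called where its Benjamini-Hochberg adjusted p over all 12613 tested genes is under 0.05. In that comparison 19.9% of all tested genes were called, 10.1% as higher in the IK-KO-labelled libraries and 9.76% as lower. Of the 38 members 8 were called (21.1%), 2 higher (5.26%) and 6 lower (15.8%), so the share called is near that of all genes. Without IK-KO replicate 3, 5 members were called, and leaving out 1 library at a time gave between 5 and 9. The direction of ISG15, IFITM2, IRF7, IRF9, IFIH1 and PARP14, none of them called, turned when 1 library was left out. The median change of the 38 was -0.08 and that of all tested genes 0.02. The 3 libraries of one group lay wholly above those of the other for 20 members, or 52.6%, against 39.0% of all tested genes, with 8 members higher (21.1%, against 20.9%) and 12 lower (31.6%, against 18.1%). The summed FPKM of all 43 members was 725, 744 and 684 in wild type and 690, 668 and 668 in the IK-KO-labelled libraries, and the ranges overlapped. In bulk samples fewer cells of a type and less RNA per cell cannot be told apart.

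**Figure D1:**
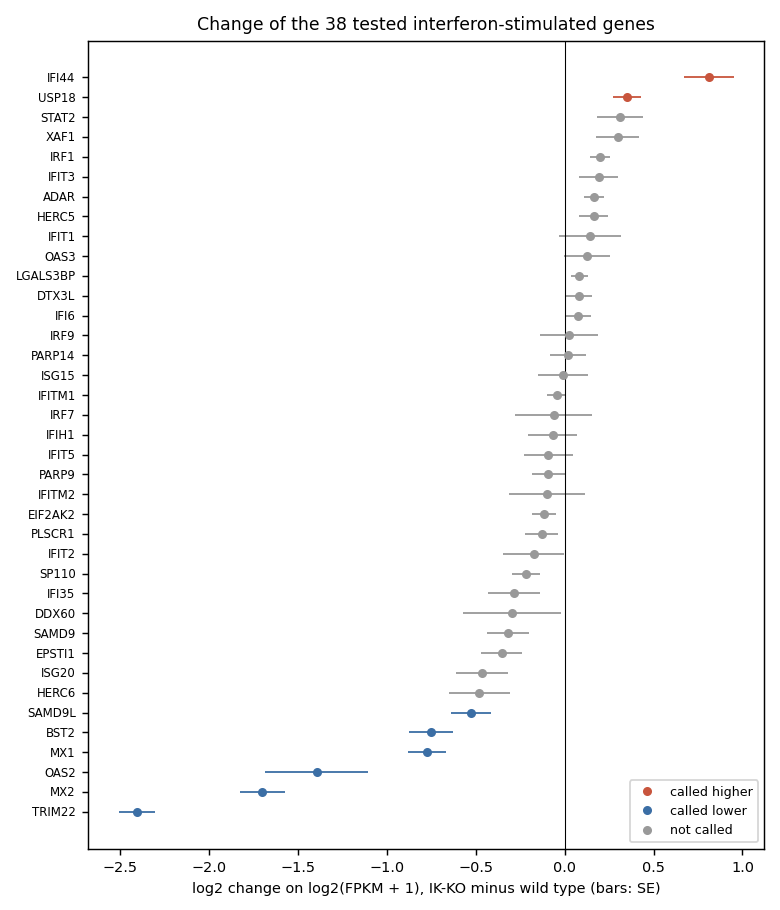
Log2 change on log2(FPKM + 1), IK-KO minus wild type, with its SE, for each of the 38 tested members (3 libraries per group). TRIM22 and MX2 lie farthest below 0, at -2.41 and -1.70, IFI44 is farthest above 0, at 0.81, and most of the rest lie near 0.

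TRIM22, a tripartite-motif protein that restricts viruses, had the largest fall on log2(FPKM + 1) among the tested members. Its row lies on chr11:5689697-5737089. FPKM was 23.1, 27.4 and 21.9 in wild type and 3.54, 3.93 and 3.70 in the IK-KO-labelled libraries. Every wild type library was several times above every library of the other group, and the confidence bounds in the tables did not overlap. The mean fell from 24.1 ± 2.87 to 3.72 ± 0.200 FPKM (SD, n = 3), a ratio of 6.48 and a log2 difference of -2.41 (SE 0.10, limma adjusted p = 2.57e-05). Of all tested genes, 34 fell more. Its annotated exons share bases with the olfactory receptor genes OR52P1 and OR56B1, and OR56B1 was listed at 0 in every library.

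The MX genes encode dynamin-like GTPases that trap viral components, and both fell. MX2 (chr21:41361999-41409393) was 34.6, 28.6 and 25.6 FPKM in wild type and 9.44, 7.80 and 7.86 FPKM in the IK-KO-labelled libraries, a change on the log2 scale of -1.70 (SE 0.13, limma adjusted p = 0.000232). MX1, the next member on the chromosome (chr21:41420304-41459214), was 10.2, 8.63 and 8.88 FPKM against 4.49, 5.43 and 5.03, a change on the log2 scale of -0.78 (SE 0.11, limma adjusted p = 0.00311). The groups did not overlap for either gene. Of the other 9 tested genes within 1000 kb of MX2, UMODL1 (log2 change -0.98) and UBASH3A (-0.46) were called lower, and ABCG1 (0.37) and TMPRSS3 (1.03) higher.

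BST2, also called tetherin, holds budding viruses at the cell surface. Its FPKM (chr19:17402939-17405630) was 30.2, 38.4 and 27.1 in wild type and 17.6, 19.0 and 18.5 in the IK-KO-labelled libraries. The 3 wild type libraries were all higher and also more spread than the others. The log2 change was -0.75 (SE 0.12, limma adjusted p = 0.00621). Among 44 other tested genes within 1000 kb of BST2, 11 were called, 5 higher and 6 lower, beside 19.9% called over all tested genes.

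OAS1, OAS2 and OAS3 make 2′-5′ oligoadenylates, which switch on RNase L. OAS2 (chr12:112978395-113011723) was 3.86, 4.27 and 8.92 FPKM in wild type and 1.86, 1.46 and 0.984 FPKM in the IK-KO-labelled libraries, with wild type replicate 3 well above the rest. The groups did not overlap, and the log2 change was -1.40 (SE 0.29, limma adjusted p = 0.0159). Without IK-KO replicate 3 the limma adjusted p was 0.0522, and without a filter on low values it was 0.0761. With the replicate number as a block it was 0.0530, so the call ended in each of these fits. OAS3, which lies between OAS1 and OAS2, was 7.42 ± 1.02 FPKM in wild type and 8.17 ± 1.04 in the IK-KO-labelled libraries (SD, n = 3), a log2 difference of 0.12 (SE 0.13, limma adjusted p = 0.558). OAS1 was under the level for testing, at 1.32, 1.07 and 0.613 FPKM in wild type and 0.595, 0 and 0.290 in the IK-KO-labelled libraries. OASL was at or under 0.0336 FPKM in all 6 libraries.

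**Figure D2:**
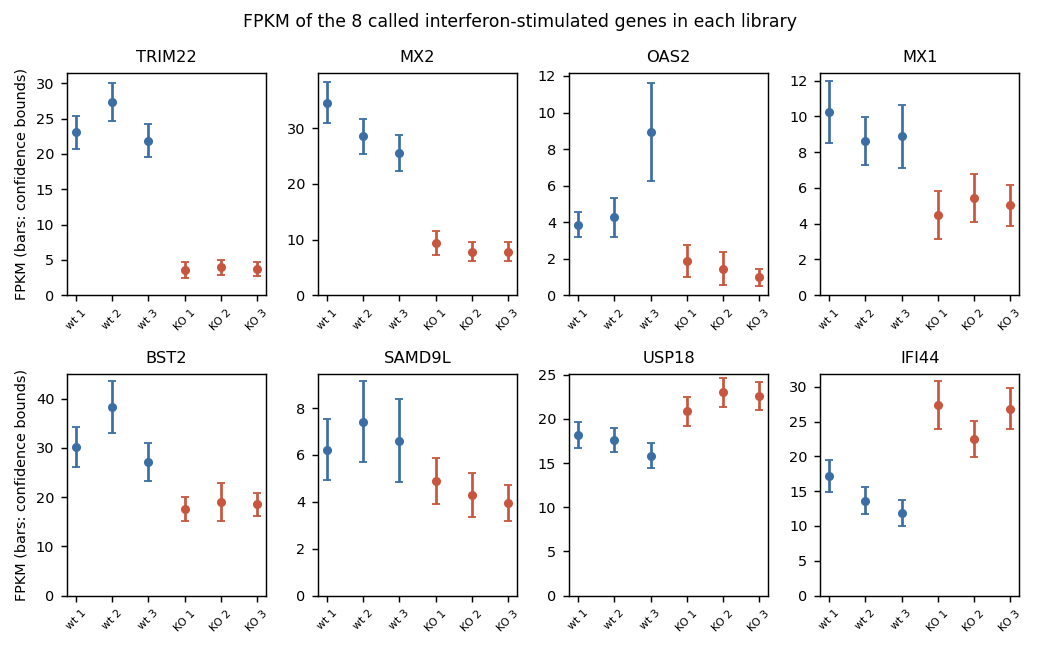
FPKM of the 8 called members in each library, with the confidence bounds given in the tables. Wild type libraries lie above the others for TRIM22, MX2, OAS2, MX1, BST2 and SAMD9L and below them for USP18 and IFI44, and the groups' bounds stay apart for 6 of the 8, with overlap for USP18 and SAMD9L.

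SAMD9 and SAMD9L are neighbouring genes of large cytoplasmic restriction factors. SAMD9L (chr7:93130056-93148385) was 6.23, 7.43 and 6.61 FPKM in wild type and 4.89, 4.30 and 3.96 FPKM in the IK-KO-labelled libraries. Every wild type library was higher, and the log2 difference was -0.53 (SE 0.11, limma adjusted p = 0.0170). The call ended without wild type replicate 2 (adjusted p 0.0633 by limma), without IK-KO replicate 2 (0.0556) and without IK-KO replicate 3 (0.0553). It also ended with the replicate number as a block (adjusted p 0.0515 by limma). SAMD9 was 8.86, 8.69 and 6.80 FPKM in wild type and 6.40, 5.82 and 6.63 FPKM in the IK-KO-labelled libraries, so its groups did not overlap either, but its log2 change of -0.32 (SE 0.12) did not pass (limma adjusted p = 0.106). Without wild type replicate 3 it did, at 0.0351.

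IFI44 (chr1:78649796-78664078), a microtubule-associated interferon-induced protein, had the largest rise on log2(FPKM + 1) among the tested members. FPKM was 17.2, 13.7 and 11.9 in wild type and 27.4, 22.5 and 26.9 in the IK-KO-labelled libraries. The lowest library of the second group lay above the highest of the first. The log2 change was 0.81 (SE 0.14, limma adjusted p = 0.00764). Its neighbour IFI44L, a paralog, reached at most 0.769 FPKM and was not tested. USP18 (chr22:18150170-18177397), the protease that removes ISG15 from proteins and binds IFNAR2 to dampen signalling, was 18.2, 17.6 and 15.8 FPKM in wild type and 20.8, 23.0 and 22.6 FPKM in the IK-KO-labelled libraries, a change on the log2 scale of 0.35 (SE 0.08, limma adjusted p = 0.0203). The USP18 call ended on leaving out wild type replicate 2 (adjusted p 0.0520 by limma), or replicate 2 (0.0709) or 3 (0.0656) of the IK-KO group. It also ended with the replicate number as a block (adjusted p 0.0588 by limma).

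The 30 tested members that were not called had log2 changes between -0.48 and 0.31 and adjusted p between 0.0530 and 0.979 in the same limma fit. The lowest values among them were those of HERC6 at -0.48, ISG20, an exonuclease, at -0.47 and EPSTI1 at -0.35, and the highest those of STAT2 at 0.31 and XAF1 at 0.30. The groups did not overlap for any of these 5, yet none passed the test. The lowest adjusted p was that of IRF1, a transcription factor also induced by interferon-gamma, whose FPKM was 40.1, 39.2 and 39.0 in wild type and 42.7, 47.4 and 46.0 in the IK-KO-labelled libraries (log2 change 0.20, SE 0.06). For IRF9, which gives ISGF3 most of its DNA contact, the log2 difference was 0.02 (SE 0.16).

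Members of the highest level did not pass the test. IFITM1, a membrane protein that blocks fusion of viruses with cells, was 103, 109 and 98.2 FPKM in wild type and 96.9, 102 and 101 FPKM in the IK-KO-labelled libraries. LGALS3BP, a secreted glycoprotein, was 89.8, 86.0 and 84.9 FPKM against 92.9, 94.4 and 88.8. The 6 IFITM1 values were all above the 6 of LGALS3BP. ADAR, which edits adenosine to inosine in double-stranded RNA, was 58.2, 63.2 and 56.4 FPKM against 67.4, 66.8 and 65.4, higher in each IK-KO-labelled library (log2 change 0.17, SE 0.06, limma adjusted p = 0.0879, without a call). ISG15, the ubiquitin-like modifier, was 41.6, 48.3 and 50.02 FPKM against 53.2, 50.1 and 37.0, with overlapping groups and a log2 difference of -0.01 (SE 0.14, limma adjusted p = 0.979). IFI6 and IRF1 had means within the range of ISG15, and the order of these 3 does not go beyond the spread of their libraries.

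Several members that did not pass had groups that stayed apart all the same. HERC6, related to the ISG15 ligase HERC5, was 5.68, 4.003 and 4.67 FPKM in wild type and 3.08, 3.94 and 2.46 FPKM in the IK-KO-labelled libraries. HERC5 itself, the ligase that attaches ISG15 to proteins, was 17.3, 15.9 and 14.4 FPKM in wild type and 17.7, 17.7 and 18.3 FPKM in the IK-KO-labelled libraries, higher in each IK-KO-labelled library while HERC6 was lower in each. ISG20 was 3.85, 3.98 and 5.36 FPKM in wild type and 2.50, 3.11 and 3.06 FPKM in the IK-KO-labelled libraries, and EPSTI1 was 6.26, 5.64 and 5.35 FPKM in wild type and 4.34, 3.75 and 4.78 FPKM in the IK-KO-labelled libraries. Both were lower in every IK-KO-labelled library. STAT2, the subunit of ISGF3 that gives it its activation domain, was 8.47, 9.67 and 9.87 FPKM in wild type and 14.3, 10.4 and 11.1 FPKM in the IK-KO-labelled libraries, with 1 IK-KO-labelled library well above the others. XAF1, a pro-apoptotic protein, was 4.02, 3.10 and 4.01 FPKM in wild type and 5.11, 4.52 and 4.68 FPKM in the IK-KO-labelled libraries. SP110, a nuclear body protein, was 16.2, 15.3 and 14.4 FPKM in wild type and 13.6, 12.1 and 13.3 FPKM in the IK-KO-labelled libraries, and EIF2AK2 was 18.8, 20.3 and 19.7 FPKM in wild type and 18.3, 17.2 and 18.5 FPKM in the IK-KO-labelled libraries. The log2 differences of these last 2 were -0.22 and -0.12. DDX60, a helicase that helps RNA sensors, varied widely within wild type, at 4.64, 8.36 and 3.99 FPKM in wild type and 5.26, 2.92 and 4.78 FPKM in the IK-KO-labelled libraries, and the groups overlapped.

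Whole groups of members stayed without a call, but they are small. With 19.9% of all tested genes called, 0 calls among so few genes does not set a group apart. The share of all tested genes with an unadjusted p under 0.05 was not counted, so those counts are description only. All 4 IFIT genes, whose products bind viral RNA ends, were tested at group means of 1.04 to 4.34 FPKM, and their log2 differences lay between -0.17 and 0.19, with 0 under an unadjusted limma p of 0.05. Among the 5 double-stranded RNA enzymes and sensors 0 passed, and 2, ADAR and ISG20, had an unadjusted limma p under 0.05. EIF2AK2, the kinase PKR, at -0.12 and IFIH1, the sensor MDA5, at -0.07 did not. PARP9, DTX3L and PARP14, which lie together on chromosome 3 and act in ADP-ribosylation and ubiquitination, had log2 differences of -0.09, 0.08 and 0.02, with 0 of the 3 under an unadjusted limma p of 0.05. IFITM2 had a log2 difference of -0.10 (SE 0.21), and IFITM3, a paralog of IFITM1 and IFITM2, was under the level for testing at 0.369 to 2.10 FPKM. The IFITM2 row, chr11:307631-315272, holds the whole IFITM1 row, chr11:313506-315272, so IFITM1 fragments may enter its value, which was not tested. Fragments of these 3 IFITM genes may have been divided between them. IFI27, a small mitochondrial protein, was 0.438, 0.142 and 0.407 FPKM in wild type and 0.541, 0.606 and 0.678 FPKM in the IK-KO-labelled libraries, and IFI44L was 0.481, 0.208 and 0.368 FPKM against 0.632, 0.769 and 0.572. Both were higher in each IK-KO-labelled library, with ratios of mean FPKM of 1.85 for IFI27 and 1.87 for IFI44L beside 1.79 for IFI44, at levels that rest on few fragments. The groups' confidence bounds overlapped for IFI27 and IFI44L. Neither was called by limma without a filter on low values, at adjusted p of 0.236 and 0.181. Of the 43 members, 17 share exon bases with another annotated gene, 11 of them with a protein-coding one, and their values are uncertain to that extent.

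**Figure D3:**
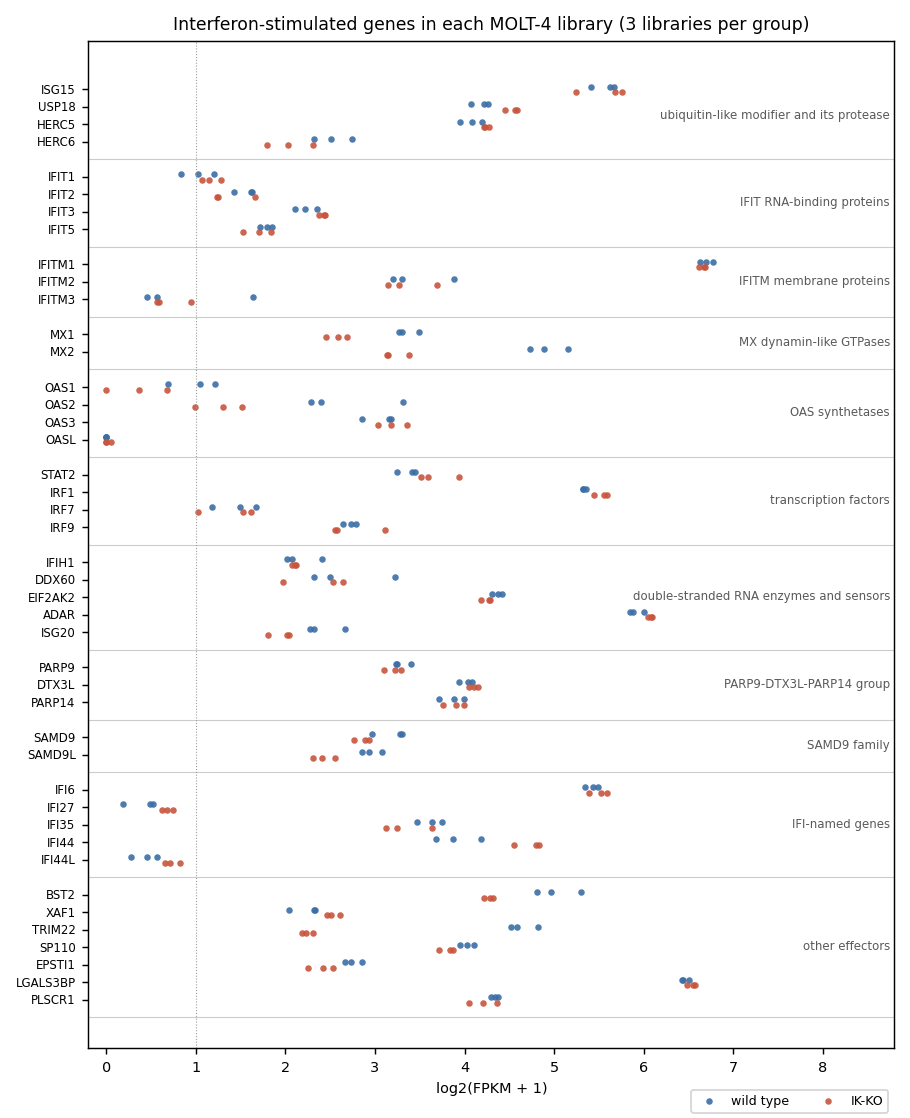
Levels of all 43 members, as log2(FPKM + 1), in each of 3 wild type and 3 IK-KO libraries, ordered by role, with a dotted line at an FPKM of 1. IFITM1 stands highest, OASL lies at 0 in all but 1 library, and the colours separate most clearly for TRIM22 and MX2.

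Genes that act before and around these members were taken from 6 lists of 100 genes. Of the 21 interferon ligands none was tested: 19 were listed at 0 in all 6 libraries, and the others, IFNA5 and IFNA10, named here after their values were seen, did not exceed 0.236 FPKM. Of 5 tested receptor genes, 2 were called, both encoding the interferon-gamma receptor, beside 19.9% called and 10.1% called higher over all tested genes. IFNGR1 rose from 9.66, 8.59 and 9.49 FPKM to 14.5, 13.6 and 13.2 (log2 change 0.53, SE 0.08, limma adjusted p = 0.00464), and IFNGR2 rose by 0.33 on the log2 scale (SE 0.08, limma adjusted p = 0.0219). The IFNGR2 call ended on leaving out wild type replicate 2 (adjusted p 0.0750 by limma), or replicate 1 (0.0660) or 3 (0.0740) of the IK-KO group. It also ended with the replicate number as a block (adjusted p 0.0551 by limma). Neither type I receptor chain was called: the log2 difference was -0.09 for IFNAR1 and 0.06 for IFNAR2. Of the 3 tested receptor kinases, JAK1, JAK2 and TYK2, 0 passed in limma, beside 19.9% called over all tested genes. An unadjusted p under 0.05 was seen for 2 of them.

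Of 7 tested negative regulators of the pathway, 3 were called, each as higher, beside 10.1% called higher over all tested genes. Of these 3, PTPN6 and PTPN2 were called under all 15 alternatives and SOCS1 was not. PTPN6, the phosphatase SHP-1, rose from 19.7, 18.6 and 17.9 FPKM to 26.9, 35.2 and 39.7 (log2 change 0.81, SE 0.13, limma adjusted p = 0.00681). PTPN2, a phosphatase that acts on JAK1, rose from 25.8, 24.5 and 22.7 FPKM to 43.4, 42.3 and 39.5 (log2 change 0.75, SE 0.07, limma adjusted p = 0.000624). SOCS1, an inhibitor of JAK kinases, passed narrowly, from 2.78 ± 0.488 to 4.43 ± 0.651 FPKM (SD, n = 3, limma adjusted p = 0.0478), and was not called when any 1 library was left out, with adjusted p between 0.0603 and 0.139 in those limma fits. Of the 9 tested genes of RNA sensing and interferon induction, 0 passed in limma, beside 19.9% called over all tested genes. An unadjusted p under 0.05 was seen for 4 of them.

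Of 41 tested genes in a list of further interferon-stimulated genes, 15 were called, 3 higher and 12 lower, beside 10.1% called higher and 9.76% called lower over all tested genes. The list was chosen with earlier results of these data known. LY6E was called under 5 of 15 alternatives, HELZ2, NLRC5 and PSMB9 under 7, PSMB8 under 13, and the other called genes under all 15. IFI30, a lysosomal thiol reductase, fell from 7.21, 3.05 and 4.60 FPKM to 0.987, 0.585 and 0.274 (log2 change -1.85, SE 0.29, limma adjusted p = 0.00519). LGALS9, the gene of galectin-9, fell from 40.8, 44.4 and 39.9 FPKM to 12.2, 15.4 and 14.4 (log2 change -1.52, SE 0.09, limma adjusted p = 0.000128). TNFSF10, the death ligand TRAIL, fell from 2.13, 2.40 and 2.17 FPKM to 0.287, 0.222 and 0.248 (log2 change -1.37, SE 0.15, limma adjusted p = 0.00135). IFI30 and TNFSF10 reached the level for testing only through wild type. Their means in the IK-KO-labelled libraries were 0.615 and 0.252 FPKM, so their place among the genes tested in the main fit rests on wild type. They were called lower without a filter on low values as well. Both group means were at least 1 FPKM for 38 of the 41 tested genes. CMPK2, a mitochondrial nucleotide kinase, rose by 0.75 on the log2 scale (SE 0.07, limma adjusted p = 0.000529), while RSAD2, the adjacent gene, had a log2 difference of 0.09 (SE 0.11, limma adjusted p = 0.610) and was named after its values were seen. Among the TRIM genes near TRIM22, TRIM34 fell by 0.78 on the log2 scale and TRIM5, at 0.16, did not pass. The TRIM5 row, chr11:5663195-5938619, holds the whole TRIM22 row. Fragments of one gene may therefore enter the value of the other, which was not tested.

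**Figure D4:**
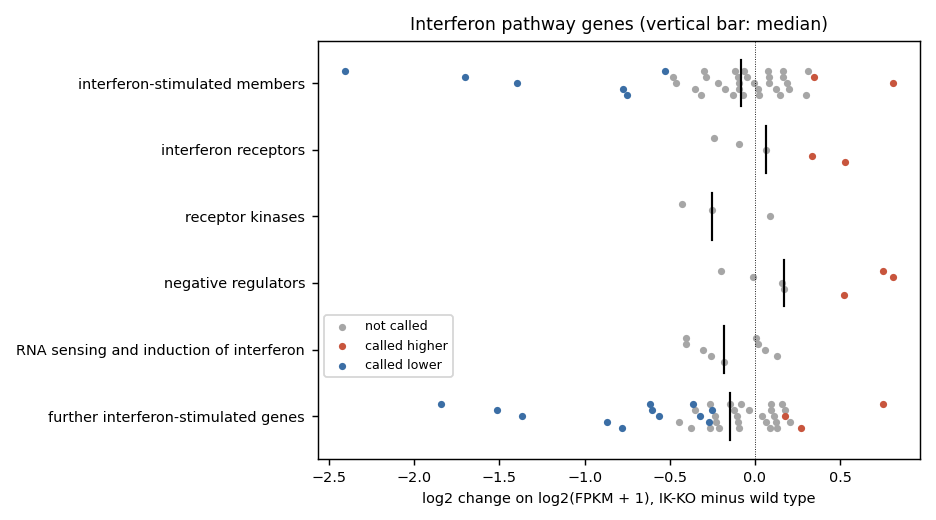
Log2 change, IK-KO minus wild type, of the tested members and of the tested genes in 5 pathway lists, with the median as a vertical bar. Calls fall on both sides of 0 for the members, whose median is -0.08. The called receptors are IFNGR1 and IFNGR2, and the called negative regulators are PTPN6, PTPN2 and SOCS1.

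The members' changes were also set beside those of the other tested genes within 1000 kb, of which the share called can be read against the 19.9% over all tested genes. Of 15 tested neighbours of OAS2, 0 were called by limma (2 at an unadjusted p under 0.05), and of 7 neighbours of IFI44, 1 was called, lower. Around TRIM22, 4 of 12 neighbours were called, TRIM34 and RRP8 lower and TAF10 and DCHS1 higher. Of 15 neighbours of SAMD9L, 2 were called and both were lower, and of 15 neighbours of USP18, 3 were called and all were lower while USP18 rose.

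**Figure D5:**
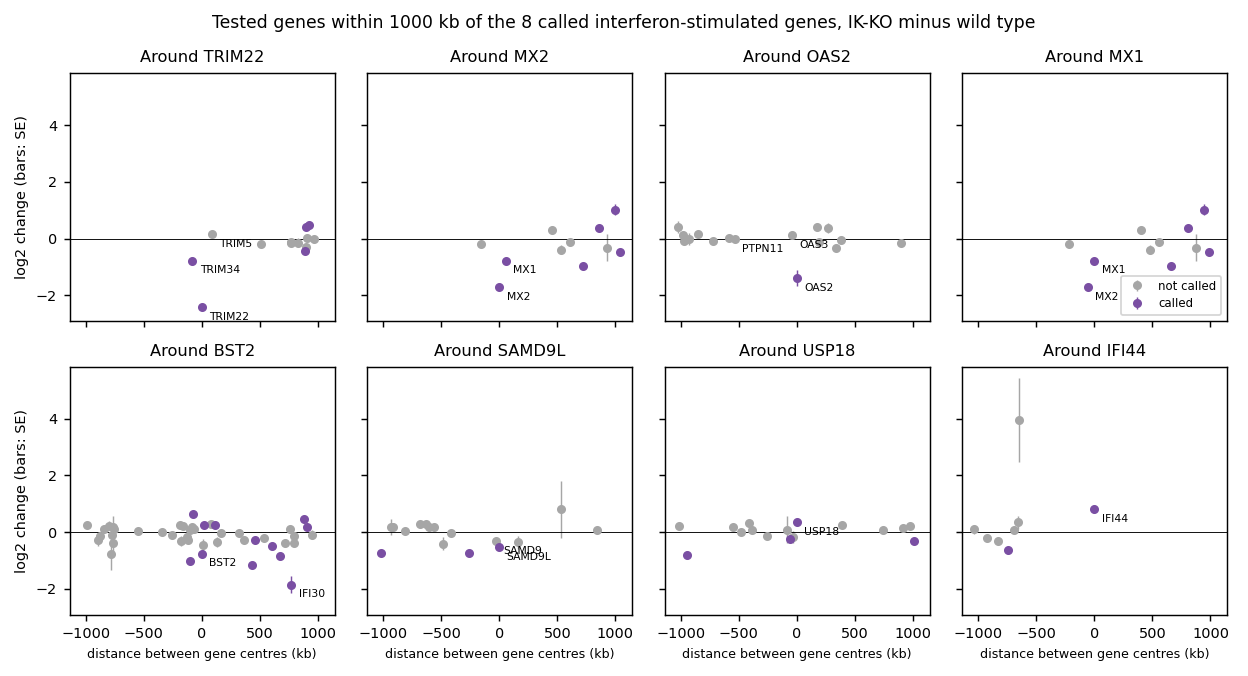
Log2 change, IK-KO minus wild type, with its SE, of tested genes by distance in kb from the centre of each of the 8 called members, with named interferon pathway genes labelled. The member stands lowest in its window around TRIM22, MX2 and OAS2, and no neighbour of OAS2 is called.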

How the data were processed

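MOLT-4 polyA RNA was sequenced in 3 wild type libraries and 3 IK-KO-labelled libraries. The deposited tables give FPKM per gene with confidence bounds and an estimation status. These FPKM were scaled by the authors to length and depth. The submitters' processing notes name hg38, STAR 2.6.1c, Cufflinks 2.2.1 and HOMER 4.10, without roles. Annotation and strand setting are not given in the sources used here, so overlapping and antisense genes are uncertain. Coordinates are on GRCh38 and count from 1: the 12 members whose identifier version occurs in GENCODE 44 lie at its position. The labels do not say whether replicate numbers pair the libraries, and the main fit used no replicate block.

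Genes on more than 1 row, or with a failed estimate, were left out. Genes reaching 1 FPKM on average were fitted with limma 3.58.1 in R 4.3.3 (trend, two-sided, Benjamini-Hochberg) on log2(FPKM + 1). No count test was run, since the tables hold no counts. Relative depth was judged from the confidence bounds of genes with 1 annotated transcript. The members and lists were chosen with earlier results of these data known. By rule, values per library are given for called members and the 4 members of highest mean FPKM, and from each pathway list the called genes with the 3 largest changes. Other genes, and the values per library of other members, were picked after their values were seen. The 1000 kb neighbour window was also set after values were seen. Alternatives varied the pseudocount, filter, scaling, trend, replicate block, failed estimates and each library left out. The pathway lists leave out 1 gene that is not reported here.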

Additional observations from a re-analysis of the deposited data

How the results depend on the processing

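Of the 8 called members, 5 (TRIM22, MX2, MX1, BST2 and IFI44) were called under all 15 alternatives. With the replicate number as a block, 5 members were called in place of 8, 1 of them higher in place of 2, and 1801 of all tested genes were called in place of 2508. The labels do not say whether replicate numbers pair the libraries, and the values do not settle it. The correlations of same-numbered deviations were 0.0677, 0.0250 and 0.0057, within a range of -0.0884 to 0.0677 over all pairings. Of the 6 libraries, 3 correlated best with their own number. Leaving out 1 library at a time gave 5 to 9 members called, 1 to 2 higher and 4 to 7 lower, 14 to 18 pathway genes, and 1713 to 2037 of all tested genes. Without IK-KO replicate 3, 5 members were called. Over all alternatives the pathway genes called numbered 14 to 23, against 20. No called member changed sign. Of the 38 tested members, 32 kept their sign in every alternative. The log2 changes of the other 6, none of them called in any fit, turned in some fits that left out 1 library, where they ranged from -0.11 to 0.15 for ISG15, -0.26 to 0.11 for IFITM2, -0.19 to 0.12 for IRF7, -0.16 to 0.12 for IRF9, -0.14 to 0.054 for IFIH1 and -0.057 to 0.083 for PARP14. IFNAR2 ranged from -0.076 to 0.16. IRF7 also turned with quantile normalization, to 0.0084. With the median of genes within 5 Mb taken off, the changes of IRF1, EIF2AK2, ADAR and PLSCR1, none of them called, became 0.12, -0.01, -0.05 and 0.00. The cause of these shifts was not tested. Depth limits the 5 members under an FPKM of 1, where small differences were not detectable.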
